A study of Mus musculus with 9 samples.

Results

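Of the 56605 non-control probes on a one-colour Agilent mouse array, 7284 (12.9%) carried an Ensembl mouse transcript ID (ENSMUST) as their systematic name and no RefSeq accession. Membership rested on that name alone and on no measured value, though the set was chosen with earlier results of these data known. These probes are called ENSMUST probes here. Each array carried 8391 spots of these probes. They stood for 7098 transcripts, of which 6923 had 1 probe, 165 had 2, 9 had 3 and 1 had 4. For comparison, 29638 probes carried a curated RefSeq mRNA accession (NM_).

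Whole lungs of male C57BL/6J mice, 12 weeks old at the start, were examined after 6 months in fresh air, in 3.5% cigarette smoke (CS) or in a 3.5% aerosol of IQOS, a device that heats tobacco without burning it. Each exposure was represented by 3 arrays, which are numbered as in the labels (air 1, CS 1, IQOS 1 and so on), and precision is limited by that number. A single slide held the 6 arrays of air and CS and a second slide held those of IQOS. The effect of IQOS and that of its slide therefore cannot be told apart. All IQOS arrays lay in array row 1, with air 1 and air 2, and all CS arrays in row 2, with air 3. A difference between IQOS and CS thus cannot be told apart from array row by those arrays alone. Whether different arrays stand for different animals is not stated in the labels, and the p-values then reflect a spread between samples that may be technical.

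Ensembl builds gene models by aligning cDNA and protein evidence to the genome and adds manually curated transcripts, so its catalogue holds many non-coding RNAs, processed pseudogenes, rearranging immune receptor segments and splice variants that a curated mRNA collection lists sparingly or not at all. A probe on an expression array is a short oligonucleotide that hybridises with labelled complementary RNA, and its brightness depends on its sequence as well as on the amount of transcript. Levels are therefore compared between arrays for 1 probe and are not ranked between single probes. The tables used here pair 0 of the ENSMUST IDs with a gene, position or sequence, so the members are named by ID, and their genes and oligonucleotide sequences were not used here.

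The arrays were alike in brightness and background but not in outlier spots. The 75th percentile of the signal was 973.3 to 1098 intensity units, the median local background 26 to 33.5 units, and 0 of the spots were saturated. Outlier spots of ENSMUST probes numbered 24 to 32 per array in air, 32 to 43 in CS and 16 to 22 in IQOS. ENSMUST probes left without a value numbered 1 to 14 in air, 17 to 23 in CS and 0 to 3 in IQOS. All 6 lung epithelium markers were well above background on all 9 arrays. Of 3 liver markers Alb was so on all 9 arrays, while Apoa1 and Ttr were so on none. Of 5 alveolar macrophage markers 4 were higher in CS than in air (median log2 change of the list 1.07), and the log2 of their summed level was 6.38 to 6.58 in air, 7.61 to 8.13 in CS and 6.55 to 6.89 in IQOS. Of 6 B cell markers 2 were lower in CS, with summed levels of 3.56 to 4.58 in air and 2.29 to 3.23 in CS. The 5 tested neutrophil markers had the largest median change of the lists in CS, 2.21. Their summed levels were 7.51 to 7.83 in air, 8.36 to 9.5 in CS and 7.43 to 8.73 in IQOS. S100a8, S100a9, Retnlg and Cxcr2, with changes of 1.98 to 2.76, missed the threshold in limma (adjusted p 0.057 to 0.0844). Csf3r did not rise, with a change of -0.030 (adjusted p 0.813). Of 6 T cell markers Cd4 was higher in IQOS than in air (0.66, adjusted p 0.00543), with summed levels of 3.67 to 3.72 in air, 3.54 to 3.93 in CS and 3.84 to 4.31 in IQOS. The part of cell composition in the changes of ENSMUST probes was not tested, and in whole tissue fewer cells of a type and less RNA per cell cannot be told apart.

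About 2 in 3 ENSMUST probes gave a signal that the scanner software marked as well above background. The share was 62.1%, 65.6% and 64.9% on the air arrays, 63.3%, 63.9% and 64.6% on the CS arrays and 64.6%, 67.7% and 68.1% on the IQOS arrays. The means were 64.2% ± 1.85 (SD, n = 3), 63.9% ± 0.66 and 66.8% ± 1.93. IQOS 2 and IQOS 3 were the highest, but IQOS 1 lay within the range of the air arrays, so the groups overlapped. NM_ probes were above background more often, at 76.3% to 79.4% per array.

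Most of that gap went with brightness, from which the software's mark is derived. When the NM_ probes were weighted to the brightness of the ENSMUST probes, over 10 bins of mean signal that each held about the same number of ENSMUST probes, their share fell to 62.3% to 68.2%. The ENSMUST share minus this weighted NM_ share was -0.37 ± 0.36 percentage points (SD, n = 3) on the air arrays, -0.56 ± 0.20 on the CS arrays and 0.21 ± 0.32 on the IQOS arrays. On 7 of the 9 arrays it was below 0, the exceptions being IQOS 1 and IQOS 2.

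Of the 7284 ENSMUST probes, 4243 (58.3%) were above background on all arrays that gave a value, 1764 (24.2%) on no array and 1277 (17.5%) on some. The pattern was seldom that of an exposure. A single probe was above background on the 3 air arrays and on no other, a single probe on the 3 CS arrays and on no other, and 22 (0.302%) on the 3 IQOS arrays and on no other. Another 11 were above background on all but the CS arrays, 4 on all but the air arrays and 0 on all but the IQOS arrays. Among NM_ probes the pattern of IQOS arrays alone was found in 31 (0.105%), without regard to brightness. The faintest signal marked above background, on the scale explained next, was -5.57 on IQOS 2 and -5.66 on IQOS 3 against -5.15 to -5.45 on the air and CS arrays and -5.28 on IQOS 1. The part of that limit in the 22 probes was not tested.

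Signals were compared as scaled log2 signals, the log2 of the background-subtracted intensity minus the log2 of the array's 75th percentile, so 0 marks that percentile. The median ENSMUST probe lay at -3.65 and the median NM_ probe at -1.32. The middle 80% of ENSMUST probes ran from -7.35 to 1.88. Of ENSMUST probes 18.3% exceeded the 75th percentile, against 37% of NM_ probes. A bright minority was present nonetheless, since 171 of the 1000 brightest probes were ENSMUST probes and the 10 brightest of them lay at 7.97 to 8.90. Probes known by other non-coding accessions were dimmer still, with medians of -6.05 for RefSeq non-coding RNAs (NR_) and -6.80 for predicted ones (XR_).

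Changes were tested only for probes that were well above background throughout at least 1 group, on each of its arrays that gave a value. This left 4678 ENSMUST probes (64.2%), while 2606 were not tested. Of those 2606 probes, 1764 were above background on no array. Among NM_ probes 22945 (77.4%) were tested. The tested ENSMUST probes had a median scaled log2 signal of -1.76 and the tested NM_ probes one of -0.17. A probe that was above background in 1 group alone entered through that group, so shares over tested probes describe those probes and not all members.

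With cigarette smoke, ENSMUST probes were called in both directions about equally, and a smaller share of them was called than of NM_ probes. In limma with Benjamini-Hochberg adjustment over all 37258 tested probes, 370 of the 4678 ENSMUST probes (7.91%) differed between CS and air at an adjusted p under 0.05, 190 higher and 180 lower. Over all tested probes 10.3% were called, 4.63% higher and 5.68% lower. Among NM_ probes weighted to the same brightness 10.8% were called, 4.86% higher and 5.96% lower, against 4.06% and 3.85% of ENSMUST probes. The ENSMUST share was thus 2.91 percentage points below the weighted NM_ share, and in each of the 10 bins of brightness it was the lower of the 2. The median ENSMUST change was -0.0087 on the log2 scale, and 90% of the changes lay between -0.55 and 0.53. The spread of a probe between arrays of a group, the residual SD, had a median of 0.157 for ENSMUST probes and 0.160 for NM_ probes when both were weighted by bin. Called shares of the other accessions were 12% for NR_ probes, 11.2% for XR_ probes, 9.79% for cDNA clones with an AK accession, 7.44% for probes named by a chromosome interval and 8.21% for the remaining names, so the ENSMUST share lay within their range. No test was made of these shares, since probes are not replicates.

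The count of 370 depended on single arrays. It was 53 without air 1, 172 without air 2, 163 without air 3, 98 without CS 2 and 176 without CS 3. It was 28 with array row as a covariate, a fit whose row term rests on air 3, which shared the row of the CS arrays, against air 1 and air 2.

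The largest fitted rise with CS was that of ENSMUST00000177413, an order that rests on air signals below background. Its scaled log2 signal was -2.12, -2.86 and -4.82 on the CS arrays, against -7.29, -7.55 and -7.44 on the air arrays and -7.29, -7.57 and -7.68 on the IQOS arrays. Only the CS arrays were above background, and they lay far above all others while differing among themselves. The probe was at least 4.16-fold higher in CS than in air (limma log2 change 4.16 ± 0.58, adjusted p 0.00869) and at least 4.71-fold lower in IQOS than in CS (-4.25 ± 0.58, adjusted p 0.00734). Each bound sets the mean of the brighter group against a mean over the arrays of the fainter group. An array entered that mean with its own signal or with its faintest signal marked above background, whichever was higher. With normexp background correction, whose added offset compresses changes of dim probes by construction, the changes were 1.30 (adjusted p 0.0387) and -1.30 (adjusted p 0.0349). The probe entered the test only through CS, the group where it was high, and the fits without 1 array used the same kind of filter. Leaving out any 1 of the 9 arrays ended neither call. With no filter on dim probes the adjusted p was 0.0227 against air and 0.0186 for IQOS against CS. Both calls ended with array row as a covariate (at an adjusted p of 0.0918 and 0.233).

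ENSMUST00000187440 had the higher bound and the larger normexp change, with -2.80, -2.57 and -0.75 on the CS arrays and -5.20, -5.64 and -5.14 on the air arrays. The IQOS arrays were split, at -3.33, -5.35 and -2.35, with IQOS 2 not well above background. It was at least 9.33-fold higher in CS than in air (3.28 ± 0.78, adjusted p 0.0392), a call that held without IQOS 2 or IQOS 3 and was lost without each of the others (adjusted p of 0.111 at most). This probe entered the test through CS, the group where it was high, and the call ended with no filter on dim probes (adjusted p 0.0795) and with array row (adjusted p 0.258), while normexp correction gave 1.80 (adjusted p 0.0436). Among falls, ENSMUST00000014174 was at -1.45, -2.77 and -2.08 on the air arrays, -3.35, -3.91 and -4.22 on the CS arrays and -2.09, -3.56 and -2.78 on the IQOS arrays. The air and CS arrays did not overlap, and the fall was 3.31-fold (-1.73 ± 0.45, adjusted p 0.0475, up to 0.144 with the call lost without any array but air 2, IQOS 1 and IQOS 2). It ended with no filter (adjusted p 0.0937) and with array row (adjusted p 0.262), and normexp correction gave -1.09. ENSMUST00000151845 was at -4.63, -5.07 and -4.30 in air and at -5.48, -6.34 and -7.24 in CS, where no array was well above background. It was at least 1.47-fold lower in CS (-1.68 ± 0.42, adjusted p 0.0447), a call that held only without CS 1 (adjusted p up to 0.128 without another array). With normexp correction its change was -0.32 (adjusted p 0.14), and the call also ended with no filter (adjusted p 0.0891) and with array row (adjusted p 0.174).

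Where CS and air did not overlap, the 10 largest called rises spanned log2 changes of 1.82 to 4.16, and the 10 largest falls 1.15 to 1.73 in size. Of these 20 probes, 5 of the rises and 3 of the falls kept their call without each array in turn.

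With IQOS, the called ENSMUST probes were mostly higher. Between IQOS and air 231 ENSMUST probes (4.94%) were called in limma, 196 higher and 35 lower, so 84.8% of the called were higher. Over all tested probes 3.72% were called, 2.74% higher and 0.98% lower. NM_ probes weighted to the same brightness were called in 2.61% of cases, 1.58% higher and 1.03% lower, against 4.19% and 0.748% of ENSMUST probes. The gap therefore lay among the rises, at 2.61 percentage points. The split of calls was 74.3% higher with normexp background correction, where 269 of 362 called ENSMUST probes were higher.

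The shift was small for most probes and was found at nearly every brightness. The median ENSMUST change was 0.046 on the log2 scale, a median that exceeded that of the weighted NM_ probes by 0.060 when both were taken by bin, and 58.6% of ENSMUST probes lay above 0 against 46.3% of the weighted NM_ probes. In bins 2 to 10 the share called higher was larger among ENSMUST than among NM_ probes. In the ninth bin, around a scaled log2 signal of 1.97, it was 6.84% against 1.01%. In the dimmest bin, around -4.82, it was 2.35% against 2.41%, the single bin in which the ENSMUST share was not the larger.

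The same was seen for the other accessions outside the curated mRNAs. Called shares for IQOS against air were 5.57% for NR_ probes, 5.93% for XR_ probes, 4.29% for probes named by a cDNA clone accession starting with AK and 8.26% for probes named by a chromosome interval, and 79.7% to 93.6% of those calls were higher. ENSMUST probes, at 84.8%, lay within that range, and the shift was not particular to them.

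Array by array, the ENSMUST probes of the IQOS group stood above the NM_ probes of the same brightness. The median deviation of ENSMUST probes from their own mean over the 9 arrays, minus that of the weighted NM_ probes, was 0.033, 0.047 and 0.015 on IQOS 1 to 3. It was -0.019, -0.017 and -0.043 on the air arrays and 0.010, -0.048 and -0.0061 on the CS arrays. All 3 IQOS arrays lay above all 6 others, among which air and CS overlapped. Since the IQOS arrays fill a slide of their own, exposure and slide cannot be told apart here.

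The count of 231 also depended on single arrays. It was 37 without air 1, 110 without air 2, 53 without air 3, 126 without CS 2, 109 without IQOS 1, 36 without IQOS 2 and 93 without IQOS 3, and 50 with array row as a covariate. In these fits 84.5% to 100% of the called ENSMUST probes were higher.

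The largest fitted rise with IQOS was that of ENSMUST00000063975, an order that rests on air signals below background. It was at -3.68, -3.65 and -4.58 on the IQOS arrays, at -6.56, -7.28 and -7.42 on the air arrays and at -6.19, -7.32 and -7.17 on the CS arrays. Only the IQOS arrays were above background, close to one another and far above the rest. It was at least 2.56-fold higher than in air (limma log2 change 3.12 ± 0.38, adjusted p 0.0102, and 0.0502 without IQOS 2) and at least 2.39-fold higher than in CS (2.93 ± 0.38, adjusted p 0.00615). With normexp correction the changes were 0.65 (adjusted p 0.0147) and 0.48 (adjusted p 0.0235). This probe entered the test only through IQOS, the group where it was high, and the fits without 1 array used the same kind of filter. The call against CS held without each of the 9 arrays. With no filter on dim probes the adjusted p was 0.0297 against air and 0.0165 against CS. With array row as a covariate the call against CS ended (at an adjusted p of 0.276) and that against air held (0.0442).

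ENSMUST00000103496 was at -2.37, -2.83 and -4.32 on the IQOS arrays and at -5.97, -5.43 and -5.96 on the air arrays, none of them above background. On the CS arrays it was at -5.85, -4.63 and -5.40, and CS 2 alone was above background there. All 3 IQOS arrays lay above all 6 others, and the level was at least 4.43-fold above that in air (2.61 ± 0.50, adjusted p 0.0358). This bound and its normexp change of 1.12 (adjusted p 0.0311) exceeded those of ENSMUST00000063975. The probe entered the test through IQOS, the group where it was high. The call ended without any array but CS 1 and IQOS 3 (adjusted p up to 0.13), with no filter on dim probes (adjusted p 0.0802) and with array row (adjusted p 0.102).

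Falls with IQOS were fewer and smaller. ENSMUST00000027384 was at 1.30, 0.85 and 1.46 on the air arrays, -0.08, 0.50 and 0.34 on the IQOS arrays and -0.53, -0.42 and -0.34 on the CS arrays, so the 3 groups did not overlap and IQOS lay between the others. It was 1.93-fold lower in IQOS than in air (-0.95 ± 0.19, adjusted p 0.0385, a call that held only without air 2 among the arrays left out, up to 0.139) and 3.10-fold lower in CS than in air (-1.63 ± 0.19, adjusted p 0.00537). The difference between IQOS and CS was not called (0.68 ± 0.19, adjusted p 0.0596). The call against air ended for IQOS with no filter (adjusted p 0.0868) and with array row (adjusted p 0.106), and for CS it held under both. ENSMUST00000119183 was at 0.60, 0.15 and 0.42 in air, -0.06, -0.14 and 0.30 in CS and -0.67, -0.49 and -0.49 in IQOS. IQOS was the lowest group, 1.92-fold below air (-0.94 ± 0.15, adjusted p 0.0205), and the call ended without air 1, air 3 or any IQOS array (adjusted p up to 0.0798), with no filter (adjusted p 0.0521) and with array row (adjusted p 0.0705).

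The 10 largest rises with IQOS against air spanned 1.26 to 3.12 on the log2 scale, and the 10 largest falls 0.475 to 0.95 in size. Of the 10 rises 7 were above background on all 9 arrays, so most were detected in every group. Without each array in turn 4 of these rises and 0 of these falls kept their call.

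Between the 2 tobacco exposures, ENSMUST probes were higher in IQOS more often than in CS. In limma 436 (9.32%) were called, 321 higher in IQOS and 115 lower. Over all tested probes 9.64% were called, 5.71% higher and 3.93% lower. Of the NM_ probes weighted to the same brightness 9.22% were called, nearly the ENSMUST share, but split into 4.62% higher and 4.6% lower, against 6.86% and 2.46% of ENSMUST probes. Without weighting by brightness, 9.15% of NR_, 11.2% of XR_, 7.77% of AK and 10.1% of chromosome interval probes were called higher. For the remaining names it was 8.58%. All these shares exceeded that of ENSMUST probes, so the excess of rises was not particular to them. The median ENSMUST change was 0.064, and 60.8% of the changes lay above 0 against 52.6% of the weighted NM_ changes. This comparison shares its IQOS arrays with IQOS against air and its CS arrays with CS against air, and is no independent evidence for either. The count was 281 without air 1, 186 without CS 2 and 226 without CS 3. It was 228 without IQOS 1, 207 without IQOS 2 and 276 without IQOS 3. With array row as a covariate it was 22. That fit separates row from exposure only through air 3 against air 1 and air 2, since IQOS and CS arrays lay in different rows.

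The largest rise in IQOS against CS was that of ENSMUST00000103403, at -0.89, -0.59 and 2.42 on the IQOS arrays, -3.07, -2.23 and -4.00 on the CS arrays and -2.41, -1.78 and -1.41 on the air arrays. All 9 arrays were above background, the IQOS arrays were the highest, and IQOS 3 stood well above the other two. The rise was 10.6-fold (3.41 ± 0.86, adjusted p 0.0456), and the call held only without IQOS 3 when arrays were left out (adjusted p up to 0.126 without another). It ended with no filter (adjusted p 0.0895) and with array row (adjusted p 0.401). The second largest fitted fall was that of ENSMUST00000039450, which with normexp correction exceeded that of ENSMUST00000177413 (-1.60 against -1.30). It was at -0.09, -0.49 and -0.05 on the CS arrays, -1.87, -1.53 and -1.66 on the air arrays and -2.13, -1.79 and -2.35 on the IQOS arrays. CS alone stood apart, while air and IQOS overlapped. The level in IQOS was 3.67-fold below that in CS (-1.88 ± 0.17, adjusted p 0.00207) and that in CS 2.77-fold above that in air (1.47 ± 0.17, adjusted p 0.00552). Both calls held without each of the 9 arrays and ended with array row as a covariate (at an adjusted p of 0.119 and 0.0677).

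The probe names of ENSMUST probes had several starts, and what these mark was not examined. Probes starting with A_66 were the most often called for IQOS against air, 53 of 549 tested (9.65%), 49 of them higher, against 62 of 1961 NM_ probes (3.16%) with the same start. The lowest share was that of A_65, with 2 of 173 (1.16%). For CS against air the called shares were 7.47% for A_66 (41 of 549), 9.9% for A_51, 8.15% for A_52, 7.71% for A_55 and 8.09% for A_65. Of the 41 A_66 calls 30 were higher, 5.46% of those tested, against 3.15% to 5.28% for the other 4 starts. Of the 10 largest rises with IQOS against air 5 were A_66 probes, which made up 549 of the 4678 tested ENSMUST probes. These shares were not tested.

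Transcripts with several probes and probes with several spots show how repeatable the values were. For 111 transcripts at least 2 probes were tested, and the brightest 2 changed in the same direction in 85 for CS against air, 83 for IQOS against air and 81 for IQOS against CS. Across these transcripts, which are not independent replicates and share their arrays, the changes of the 2 probes had a Pearson correlation of 0.697, 0.707 and 0.738. Both probes were called for 3, 1 and 2 transcripts, each time in the same direction.

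Of the 300 probes spotted 10 times on each array 123 were ENSMUST probes, and all 123 were tested. Their median SD between the spots of an array was 0.036 and their median residual SD between arrays of a group 0.040, against 0.044 and 0.047 for 122 NM_ probes spotted as often. The SD between arrays is that of values averaged over the spots, so it is not like for like with the SD between single spots. Over all tested ENSMUST probes the median residual SD was 0.149, so the repeated probes do not stand for the set. Few of the repeated ENSMUST probes were called. In limma 0 were called for CS against air, 0 for IQOS against air and 1 for IQOS against CS, with 2, 5 and 4 at an unadjusted p under 0.05, where over all tested probes 10.3%, 3.72% and 9.64% were called. The repeated NM_ probes had 16, 1 and 12 calls.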

How the data were processed

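The authors extracted spot intensities from scans of Cy3-labelled whole-lung RNA, for which the submitters' processing notes name Agilent Feature Extraction 10.7.1.1. The deposited signal is background-subtracted and not normalized between arrays, as the values show. The deposited matrix of values holds a linear ratio per probe, each array's intensities over its 75th percentile, a scale found from the values, and was used as an alternative.

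Groups came from the labels. Outlier spots were left out, a probe's spots were averaged on the log2 scale, and each array's 75th percentile was subtracted. A probe counted as above background when over 0.5 of its spots did. Probes were tested with limma 3.58.1 in R 4.3.3 (lmFit and eBayes on all 9 arrays, 37258 probes; the data.table package, version 1.17.8) when each group had at least 2 values and all values of at least 1 group were above background. Calls were made at an adjusted p under 0.05 (Benjamini-Hochberg). NM_ shares and medians were weighted over 10 bins of mean signal. The fit was tested on simulated data.

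Probes were named by rule: the largest called changes whose groups did not overlap, of which 2 in each direction are printed by ID since nothing used here pairs the IDs with genes. Marker genes were found through RefSeq accessions. Members, marker lists and rules were chosen with earlier results of these data known. Alternatives were normexp correction (offset 50), quantile and median scaling, 2 other filters, the deposited matrix, an intensity trend with robust eBayes, array row, a replicate block, 20 bins, matching on air signal, another background flag, outlier spots kept and each array left out. Correlations of the deviations of same-numbered arrays were -0.079 to 0.2, which cannot settle whether those arrays were paired.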

Additional observations from a re-analysis of the deposited data

How the results depend on the processing

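Directions held for some measures and not for others. The ENSMUST share called higher minus the weighted NM_ share stayed above 0 in all 20 alternatives for IQOS against air and for IQOS against CS, and so did the median change. For CS against air the total share called stayed below the NM_ share in all 20. For IQOS against air it stayed above the NM_ share in all 20, while for IQOS against CS the difference changed sign in 4. Values and counts moved far more. Called ENSMUST probes numbered 129 (CS against air), 64 (IQOS against air) and 225 (IQOS against CS) with no filter on dim probes, which adds probes to the adjustment, and 28, 50 and 22 with array row as a covariate. Those for IQOS against air were 362 with normexp correction and 129 with median centring. Leaving out 1 array gave 53 to 337, 36 to 204 and 186 to 419, with fewer arrays in the fit.

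The total share called, ENSMUST minus weighted NM_ in percentage points, was for CS against air -3.98 with quantile normalization, -1.18 with no filter and -0.528 with array row, for IQOS against air 1.25 with median centring, 0.525 with no filter and 0.577 with array row, and without 1 array -2.67 to -1.06 and 0.53 to 2.36. For IQOS against CS, 0.098 as reported, it turned to -0.483 with normexp correction, -0.118 with quantile normalization, -0.502 with median centring and -0.1 without air 2 (-0.1 to 0.874 without 1 array), so it has no settled direction. The cause was not tested. The share called higher was for CS against air -1.43 with quantile normalization, -1.41 with median centring and -1.39 to 0.0738 without 1 array, turning at CS 1. For IQOS against air it was 3.61 with normexp correction, 1.46 with median centring, 0.599 with no filter, 0.689 with array row and 0.618 to 2.45 without 1 array, and for IQOS against CS 1.3 with no filter, 0.3 with array row and 1.64 to 2.25 without 1 array. The median change, ENSMUST minus NM_, was for CS against air -0.00069 with bins from the air arrays and -0.00669 (without CS 1) to 0.0302 (without CS 2), and for IQOS against CS 0.0178 with array row.

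With a replicate block ENSMUST calls were 358, 101 and 372, the total share differences -1.39, 1.27 and 1.18, and the differences in the share called higher 0.0444 for CS against air and 1.34 for IQOS against air. Deviations of same-numbered arrays were only weakly correlated, which cannot settle whether the numbers pair the arrays. The share of ENSMUST probes detected was 81% in air, 81.4% in CS and 82.9% in IQOS under the software's laxer flag for a positive and significant signal. Of the 14 calls printed with an ID, 7 ended with no filter (adjusted p 0.0521 to 0.0937), 12 with array row, 3 with the block (0.0543 to 0.0715) and 1 with normexp correction. Signal near background limits what can be said of the 2606 untested probes. The matched medians and the shares called higher were added after their values were seen, as were 6 of the alternatives for the total share.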

Other observations

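Stretches of the Ensembl numbering stood apart, and were singled out after their values were seen, so no test was made. Among 83 stretches of 1000 numbers with at least 20 tested probes, that from ENSMUST00000103000 on had the highest median change for IQOS against air, 0.57 over 155 tested probes, against 0.234 for the next. ENSMUST00000103496 and ENSMUST00000103403, described above, belong to that stretch. Of its changes 91.6% lay above 0, yet only 4 (2.58%) were called, all higher, against 3.72% over all tested probes, and 24 had an unadjusted p under 0.05. The arrays of these probes disagreed within groups, with a median residual SD of 0.681 against 0.149 for all tested ENSMUST probes. The median deviation from a probe's own mean was -0.34, -0.47 and 0.22 on the air arrays, 0.019, -0.27 and -0.14 on the CS arrays and 0.039, 0.15 and 0.68 on the IQOS arrays. IQOS 3 was the highest, and the groups overlapped. The log2 of the summed level of 4 plasma cell markers was 4.59 to 5.35 in air, 4.86 to 5.18 in CS and 4.86 to 5.56 in IQOS, and that of 6 B cell markers 3.56 to 4.58, 2.29 to 3.23 and 3.17 to 4.25. That of 6 T cell markers was 3.67 to 3.72, 3.54 to 3.93 and 3.84 to 4.31, with the IQOS arrays above the air arrays. Their part in the spread was not tested.

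Among 18 stretches of 10000 numbers with at least 50 tested probes, that from 110000 to 119999 had the highest called share in both IQOS comparisons, 10.6% against air (40 of 379, 36 of them higher) and 16.6% against CS (63 of 379, 48 of them higher), where all tested probes had 3.72% and 9.64%. For CS against air it was 10.8%, within the range of 4.44% to 14.5% over the 18. The residual SD there had a median of 0.0995. From 182000 to 182999, 16 of 102 tested probes (15.7%) were called for CS against air, 14 of them higher (13.7%), against 10.3% called and 4.63% called higher over all tested probes. This was the most called higher of the 83 stretches, where the next had 8. For IQOS against air 5 of these 102 (4.9%) were called, all higher.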
